A study of Rattus norvegicus with 9 samples.

Results

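The genes of the complement and coagulation systems were followed in rat liver across 3 groups. They are 44 listed genes: the 3 C1q genes, which macrophages make, the early, central and terminal complement factors with their soluble inhibitors, the clotting factors, the fibrinogen chains, and the anticoagulants and fibrinolysis factors that the liver secretes into plasma. A gene counted as measured where a transcript cluster of the array, the set of probes that reads 1 gene, carries its symbol alone, and the brightest such cluster over the 9 arrays stood for it. So 41 of the 44 were measured, out of 22093 genes with such a cluster. C2 and Cfb lie on 1 shared cluster, and Kng1 shares one with Kng2, so these 3 were not analysed as genes. Of the 41, 3 are C1q genes, 37 are called hepatocyte-made here, and Cfd (factor D) was kept apart because fat is its main source.

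The study asked how 7 days of a lupin protein with a lupin alkaloid change gene expression in the diabetic liver. T2D treated rats received 28 mg/kg gamma conglutin (Cγ) and 20 mg/kg lupanine by gavage each day, T2D control rats received the saline vehicle, and healthy control rats had no diabetes and also received vehicle. All were male Wistar rats, 6 to 8 weeks old at entry, and both T2D groups had eaten a high-fat diet (60% fat) for 4 weeks before a single 35 mg/kg dose of streptozotocin, a toxin of pancreatic beta cells, and stayed on that diet afterwards. Each array read RNA pooled from the livers of 3 rats, with 3 pools per group (treated pools 1 to 3, T2D control pools 4 to 6, healthy pools 7 to 9). Per the labels, healthy livers were lysed in Buffer RLT and T2D livers in Trizol, so lysis, diet, streptozotocin and diabetes cannot be told apart in any comparison with healthy livers. Pools are biological replicates in the labels, but technical replicates are mentioned in the methods as well. The p-values therefore measure the spread between these pools, which may in part be technical. Exact ties between arrays also occur, within and across groups. Of the 41 measured genes, 18 had a tie between pools, and 0 were constant across the 3 pools of a group. Of all clusters tested, 7174 did not vary within at least 1 group. The effect of these ties on the standard errors and p-values was not tested.

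Complement is a cascade of plasma proteins that marks and lyses microbes and clears debris. C1q bound to antibody starts the classical pathway through the proteases C1r and C1s, mannose-binding lectins and the Masp proteases start the lectin pathway, both cleave C4 and C2 and then C3, and C5 to C9 assemble the membrane attack complex. Coagulation is a second protease cascade that ends in thrombin, which turns fibrinogen into fibrin, and is held back by antithrombin, heparin cofactor II and the protein C system, while plasmin dissolves the clot. Hepatocytes make most of these proteins, and C1q is the main exception, since resident and recruited macrophages make it.

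Values are RMA log2 signals as deposited, a scale on which 1 unit is a 2-fold difference within a probe set, and levels of different genes are not compared because probes differ in brightness. Most of the array was dim, with 76.6% to 76.9% of clusters below 5, whereas all 41 members averaged at least 5 and 37 at least 8. Differences were tested with limma over all 9 arrays and 68842 clusters, and called means an adjusted p under 0.05 (Benjamini-Hochberg). Of the 14 measured hepatocyte markers, albumin (Alb) averaged 12.61, 12.68 and 12.74 in treated, T2D control and healthy pools, and others differed more between groups (given below). Healthy pool 8 had the lowest array weight in limma, 0.18, and healthy pool 9 had 0.25, against 1.28 to 2.15 for the others. Pool 8 was the highest of its group in 23 of the 41 members and the lowest in 15. Such extremes were not particular to it. Treated pool 2 was the highest of its group in 28 members and treated pool 1 the lowest in 25. T2D control pool 4 was the highest in 12 and the lowest in 22. The background probes of the array averaged 2.89 in treated, 2.82 in T2D control and 3.52 in healthy pools. Without pool 8, 18 members were called in T2D control against healthy livers, 16 of them among the 19 called with it.

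In T2D control against healthy livers, 6 of the 41 members rose and 13 fell. The largest rises were F5 (factor V) at 1.99-fold, C1qb at 1.68-fold and Serping1 (C1 inhibitor) at 1.54-fold, and the largest falls were C4bpb at 1.96-fold, Mbl1 at 1.76-fold, and F2 and F13b at 1.75-fold each. Among all clusters, 12.4% were called higher and 22.6% lower, beside 14.6% and 31.7% of the members. Bright clusters had the opposite balance: 33.3% were higher and 23% lower among the 16024 with a mean of at least 5, and 38.3% and 15% among the 3910 with a mean of at least 8, a set chosen after the values were seen. Of the 19 complement genes beside C1q, 4 rose and 4 fell, and of the 19 coagulation and fibrinolysis genes 1 rose and 9 fell. The median difference of the 41 members was -0.14 log2, that of all clusters -0.12, that of the clusters with a mean of at least 5 was 0.10, and that of those with at least 8 was 0.43. No member met the study's own threshold of an unadjusted p under 0.05 with an over 2-fold difference, which 4.14% of all clusters met. In bulk liver, fewer cells of a type and less RNA per cell cannot be told apart.

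**Figure D1:**
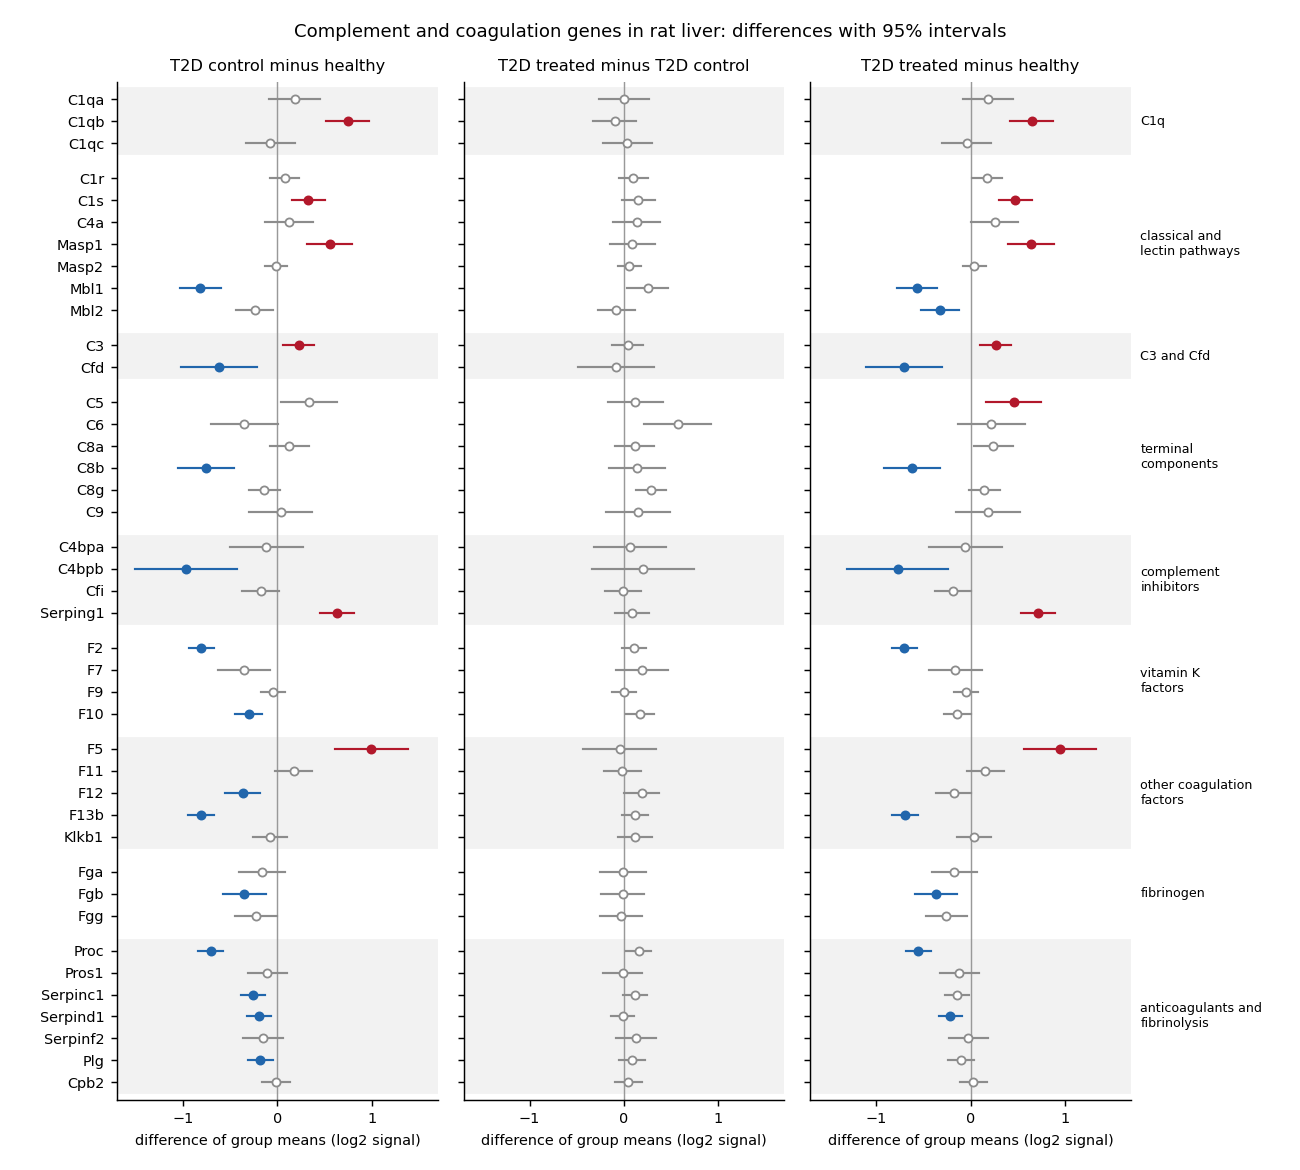
Difference of group means (log2 signal) of the 41 measured members, grouped by role, in T2D control minus healthy, T2D treated minus T2D control and T2D treated minus healthy livers (3 pools per group). Lines are 95% intervals of limma, and filled points passed an adjusted p of 0.05 (red higher, blue lower). In the left panel 6 members are red and 13 blue, in the middle panel none is filled, and in the right panel 7 are red and 10 blue.

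The calls depend on how the arrays are centred. RMA left the median of all clusters 0.12 log2 lower in T2D control than in healthy livers. Centring each array on its median gave 8 members higher and 6 lower, and a second quantile normalization of the cluster values gave 4 higher and 23 lower, against 6 and 13 as deposited. Over all clusters the higher calls were 35.5% of calls as deposited, 45.6% after quantile normalization and 57.5% after centring. Called in the same direction under all 3 scalings were C1qb, Masp1, C3 and F5, which rose, and Mbl1, C8b, C4bpb, F2, F13b and Proc, which fell.

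Among the falls, the smallest p values belonged to clotting factors and to protein C, their brake. F2 (prothrombin, the precursor of thrombin) read 10.44, 10.53 and 10.53 in treated pools, 10.42, 10.38 and 10.40 in T2D control pools, and 11.24, 11.25 and 11.13 in healthy pools. It fell by 0.81 log2 in T2D control livers (SE 0.057, adjusted p = 7.7e-05 by limma), and its 6 T2D pools lay well below the 3 healthy ones. F13b, the carrier subunit of the factor XIII that cross-links fibrin, read 8.63, 8.75 and 8.75 in treated, 8.55, 8.62 and 8.62 in T2D control and 9.33, 9.46 and 9.42 in healthy pools. It fell by 0.81 (SE 0.060, adjusted p = 9.69e-05), again with no T2D pool near the healthy ones. Proc, the zymogen of activated protein C, which cuts factors Va and VIIIa, read 9.86, 9.86 and 9.77 in treated, 9.68, 9.72 and 9.63 in T2D control and 10.42, 10.43 and 10.31 in healthy pools. It fell by 0.71 (SE 0.058, adjusted p = 0.000141). All 3 genes kept this call under each of 8 alternative settings (listed with the processing) and without each pool in turn, with adjusted p values up to 0.00232.

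Of the vitamin K-dependent factors, whose glutamates must be carboxylated before they bind calcium, F10 also fell. Its values were 10.23, 10.33 and 10.25 in treated, 10.11, 10.13 and 10.07 in T2D control and 10.49, 10.30 and 10.43 in healthy pools. The difference was -0.31 (SE 0.064, adjusted p = 0.00816). F10 lost its call after median centring (-0.19, adjusted p = 0.123) and also with a trended and robust eBayes. F7 differed by -0.35 (adjusted p = 0.0524) and F9 by -0.05 (adjusted p = 0.522), and neither was called. The enzymes of the vitamin K cycle moved both ways: the carboxylase Ggcx rose by 0.82 (adjusted p = 0.00362), while the epoxide reductases Vkorc1 and Vkorc1l1 fell by 0.38 and 0.54 (adjusted p = 0.0363 and 0.00303).

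F5, the cofactor that factor Xa needs to make thrombin, went the other way from its partners. It read 9.30, 9.41 and 9.32 in treated, 9.45, 9.40 and 9.31 in T2D control and 8.51, 7.95 and 8.72 in healthy pools, a rise of 1.00 log2 in T2D control livers (SE 0.17, adjusted p = 0.00323). Every T2D pool exceeded every healthy pool, and healthy pool 8 held the lowest value of all 9 (without it the rise was 0.77). In the contact system, F12, the factor that starts clotting on charged surfaces, fell by 0.37 (SE 0.082, adjusted p = 0.0105), a call lost after centring (adjusted p = 0.0784), while its partner Klkb1 (plasma prekallikrein) and F11 were not called, at -0.08 and 0.17.

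The 3 fibrinogen chains had negative differences, and 1 was called. Fgb fell by 0.35 (SE 0.10, adjusted p = 0.0265), whereas Fgg at -0.22 and Fga at -0.16 were not called (adjusted p = 0.101 and 0.244). Among anticoagulants and fibrinolysis factors, all 7 had negative differences and 4 fell. Beside Proc these were Serpinc1 (antithrombin) by 0.26, Serpind1 (heparin cofactor II) by 0.20 and Plg (plasminogen) by 0.18. Pros1 (protein S), Serpinf2 (alpha-2-antiplasmin) and Cpb2 (the fibrinolysis inhibitor TAFI) were not called. Over all clusters only 31% of the differences were above 0 in this comparison. Fgb, Serpinc1, Serpind1 and Plg lost their calls after median centring, and also with a trended and robust eBayes.

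In the lectin pathway, the recognition molecule Mbl1 and the protease Masp1 went opposite ways. Mbl1 (mannose-binding lectin A) read 8.89, 9.05 and 8.91 in treated, 8.61, 8.73 and 8.76 in T2D control and 9.43, 9.71 and 9.41 in healthy pools. It fell by 0.82 (SE 0.093, adjusted p = 0.000593), and the lowest healthy pool exceeded the highest T2D pool. Mbl2 differed by -0.24 (adjusted p = 0.060) and was not called. Masp1, the protease bound to these lectins, read 8.88, 9.19 and 8.91 in treated, 8.87, 8.95 and 8.89 in T2D control and 8.31, 8.21 and 8.54 in healthy pools. It rose by 0.55 (SE 0.11, adjusted p = 0.00541), with all 6 T2D pools above all healthy ones, while Masp2 differed by -0.02 (adjusted p = 0.811).

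In the classical pathway, C1s read 10.31, 10.48 and 10.28 in treated, 10.20, 10.21 and 10.20 in T2D control and 9.81, 10.01 and 9.82 in healthy pools. It rose by 0.33 as deposited (SE 0.077, adjusted p = 0.0129), but its sign turned under quantile normalization (-0.14, adjusted p = 0.605). Its partner C1r differed by 0.08 and C4a, whose probes may also read the near-identical C4b, by 0.12, and neither was called. Serping1, which inactivates C1r, C1s and the Masp proteases as well as factor XIIa and kallikrein, read 10.89, 11.16 and 10.99 in treated, 10.87, 10.95 and 10.97 in T2D control and 10.30, 10.36 and 10.24 in healthy pools. It rose by 0.63 (SE 0.078, adjusted p = 0.000882), a call lost under quantile normalization (0.32, adjusted p = 0.184).

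At the centre of the cascade, C3 read 12.35, 12.46 and 12.41 in treated, 12.40, 12.35 and 12.35 in T2D control and 12.18, 12.002 and 12.25 in healthy pools. It rose by 0.23 (SE 0.071, adjusted p = 0.040). Cfd, the protease of the alternative pathway, read 6.17, 5.55 and 6.17 in treated, 5.99, 6.16 and 6.00 in T2D control and 6.49, 6.91 and 6.60 in healthy pools. It fell by 0.62 (SE 0.18, adjusted p = 0.0273), with all T2D pools below all healthy ones.

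Of the 6 terminal genes, C8b alone was called. It read 9.54, 9.90 and 9.40 in treated, 9.49, 9.47 and 9.47 in T2D control and 10.07, 10.39 and 10.24 in healthy pools, and fell by 0.75 (SE 0.13, adjusted p = 0.00345). The other 2 subunits of the C8 complex, C8a and C8g, differed by 0.13 and -0.14 (adjusted p = 0.284 and 0.153). C5, C6 and C9 differed by 0.33, -0.35 and 0.03 and were not called. Among the inhibitors, C4bpb, the beta chain of the C4b-binding protein that carries protein S, read 7.80, 8.52 and 8.12 in treated, 7.94, 7.94 and 7.95 in T2D control and 8.65, 9.44 and 8.67 in healthy pools. It fell by 0.97 (SE 0.23, adjusted p = 0.0146), and the alpha chain C4bpa, the C4b-binding part, differed by -0.12 (adjusted p = 0.590). Cfi, which cleaves C3b and C4b, differed by -0.18 (adjusted p = 0.125).

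**Figure D2:**
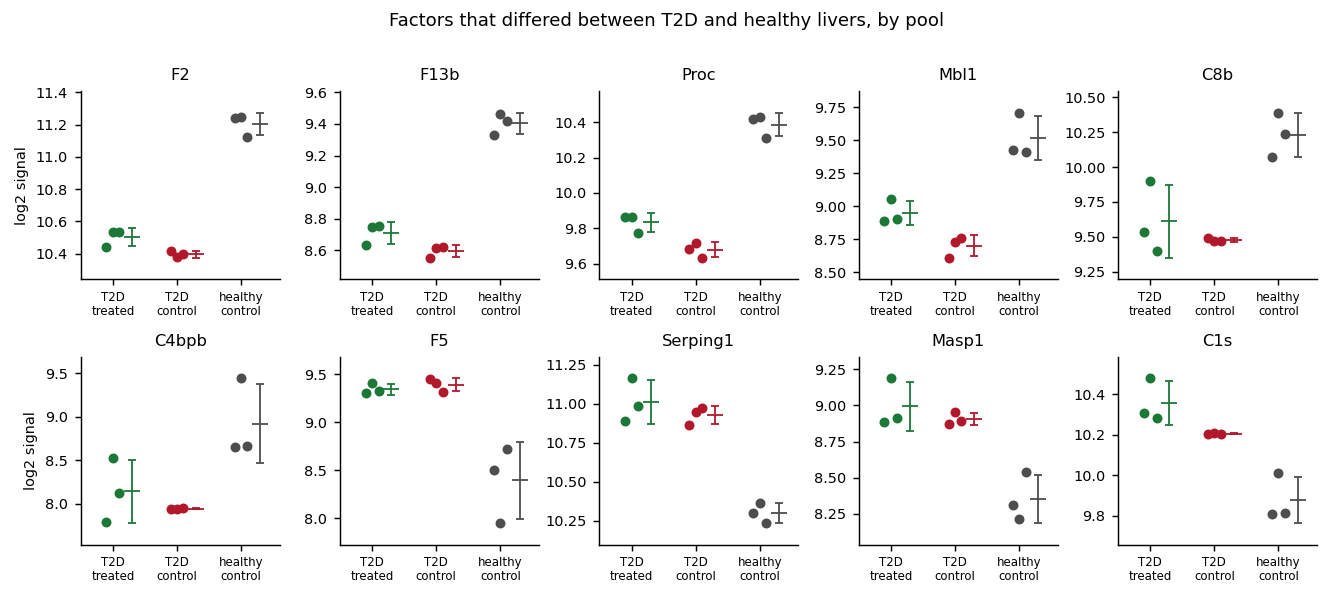
Log2 signal of 10 members in each pool, with T2D treated, T2D control and healthy control pools from left to right. Points are pools and the bar beside them is the mean with its SD (n = 3). F2, F13b, Proc, Mbl1, C8b and C4bpb lie lower in both T2D groups than in healthy livers, and F5, Serping1, Masp1 and C1s lie higher, with no T2D control pool inside the healthy range.

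Pools of T2D control and healthy livers did not overlap in 28 members, higher in T2D control in 9 and lower in 19. Over all clusters this held for 15% in the higher and 32.7% in the lower direction. Of the 19 calls, 14 held without each of the 9 pools in turn. Of the other 5, C3 was called only without healthy pool 9 (0.16 to 0.28 over the 9 omissions) and Plg only without healthy pool 8 (-0.23 to -0.15). Cfd lost its call without T2D control pool 4, 5 or 6 or healthy pool 8 (-0.71 to -0.50), Fgb without T2D control pool 4 or 5 or healthy pool 8 (-0.39 to -0.29), and Serpind1 without T2D control pool 4, 5 or 6 or healthy pool 7 (-0.23 to -0.18).

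Of the hepatocyte regulators listed, 3 rose in T2D control livers and 2 fell, and the 2 were Foxa2 (by 0.94, adjusted p = 0.000452) and Cebpa (by 0.61, adjusted p = 0.0106), a liver factor of the C/EBP family. Hnf4a differed by 0.17 (adjusted p = 0.163). TTGCNNAA, a form of the C/EBP site, was searched on both strands in the 250 bases before each start site. A match was found in 12 of the 34 members with a promoter entry (35.3%), one of them Kng1, which was not analysed as a gene. Of all 33469 promoter entries of the same length 9.22% had a match. Members were counted with 1 entry each, and the background with every entry. C3, which rose under all 3 scalings, and C8b, which fell under them, both hold these letters (capitals) and are shown for that contrast. Sequences are from RefSeq on GRCr8, 5' to 3' along the gene, with the start site just after the last base.

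C3, chr9:2201340-2201589, minus strand: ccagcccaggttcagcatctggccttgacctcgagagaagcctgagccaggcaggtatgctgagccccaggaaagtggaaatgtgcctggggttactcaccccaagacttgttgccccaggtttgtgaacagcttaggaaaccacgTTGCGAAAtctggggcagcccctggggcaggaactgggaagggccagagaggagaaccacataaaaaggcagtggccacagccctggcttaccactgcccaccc
C8b, chr5:124763864-124764113, plus strand: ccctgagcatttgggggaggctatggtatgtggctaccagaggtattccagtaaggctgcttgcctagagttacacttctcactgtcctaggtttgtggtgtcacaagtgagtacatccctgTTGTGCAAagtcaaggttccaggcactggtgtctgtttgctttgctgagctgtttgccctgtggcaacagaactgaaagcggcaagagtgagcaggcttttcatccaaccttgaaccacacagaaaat

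The match starts 104 bases before the start site used in C3 and 128 in C8b. For C8b the start site used lies inside the gene, which RefSeq begins at chr5:124763974. Part of the C8b window, with its match, therefore lies within the gene and not upstream of it. Of the members called under all 3 scalings, 1 of the 4 that rose (C3) and 1 of the 6 that fell (C8b) had such a match. A letter match is a description of sequence and not of binding.

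The C1q chains are encoded side by side on rat chromosome 5, and their proteins assemble in equal numbers. PU.1, a factor of macrophages, binds the core letters GAGGAA, which 23.3% of all promoters hold. Of the 34 members with a promoter entry 9 hold them (26.5%). These are C1qb and the hepatocyte-made C1r, Mbl1, C4bpb, F7, F11, Fgb, Serpinc1 and Plg. Of the members called under all 3 scalings, 1 of the 4 that rose (C1qb) and 2 of the 6 that fell (Mbl1 and C4bpb) hold them. The letters are in capitals where they occur on either strand, C1qb having 2 matches (247 and 90 bases before its start) and C1qa 0 in this window. A link between these letters and the values was not tested.

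C1qa, chr5:154419934-154420183, minus strand: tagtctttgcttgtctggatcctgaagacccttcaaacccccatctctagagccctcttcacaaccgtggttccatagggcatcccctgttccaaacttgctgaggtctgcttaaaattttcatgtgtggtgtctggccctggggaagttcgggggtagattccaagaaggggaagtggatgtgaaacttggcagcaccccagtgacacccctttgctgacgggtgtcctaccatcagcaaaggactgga
C1qb, chr5:154407828-154408077, minus strand: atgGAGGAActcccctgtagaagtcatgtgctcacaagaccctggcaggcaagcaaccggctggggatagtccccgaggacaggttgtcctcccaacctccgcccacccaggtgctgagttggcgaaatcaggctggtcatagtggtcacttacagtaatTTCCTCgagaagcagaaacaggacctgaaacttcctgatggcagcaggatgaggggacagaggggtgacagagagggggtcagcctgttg

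The C1q genes did not move alike. C1qb read 8.75, 8.83 and 8.85 in treated, 8.69, 9.04 and 8.99 in T2D control and 8.04, 8.25 and 8.20 in healthy pools. It rose by 0.74 in T2D control livers (SE 0.10, adjusted p = 0.00119), with all 6 T2D pools above the healthy ones, and it was called under each of the 8 alternative settings and without each pool. C1qa read 8.91, 8.77 and 9.01 in treated, 8.79, 8.88 and 9.01 in T2D control and 8.59, 8.96 and 8.59 in healthy pools, a difference of 0.18 (SE 0.12, adjusted p = 0.237, 95% interval -0.08 to 0.45). Its groups overlap through healthy pool 8. Without that pool the difference was 0.31 and was called (adjusted p = 0.0398), and under quantile normalization it was -0.16. C1qc read 6.44, 6.41 and 6.61 in treated, 6.37, 6.46 and 6.51 in T2D control and 6.39, 6.79 and 6.39 in healthy pools, a difference of -0.07 (adjusted p = 0.615, interval -0.34 to 0.19) that was 0.06 without healthy pool 8 and 0.04 after median centring. That the chains differ in their change was not tested.

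Set against the factors of hepatocytes, the mean of the 3 C1q genes minus the mean of the 37 hepatocyte-made members, which holds the same probes in every pool, was -1.91, -2.15 and -1.87 in treated pools, -1.97, -1.82 and -1.78 in T2D control pools and -2.38, -2.08 and -2.37 in healthy pools. The group means were -1.98 ± 0.15, -1.86 ± 0.10 and -2.28 ± 0.17 (SD, n = 3 pools each). The gap was thus 0.42 log2 smaller in T2D control than in healthy livers, with healthy pool 8 nearest to the T2D control pools, and it differed by -0.12 between treated and T2D control livers, within their spread. Taken gene by gene, the median difference between T2D control and healthy livers was 0.18 for C1q and -0.15 for the hepatocyte-made members, 0.33 apart. With medians taken within each pool the gap narrowed by 0.88, but there the middle gene is C1qb in healthy pools and C1qa in some T2D pools, so that value in part sets the level of one probe against that of another. These values describe 3 genes of which 1 was called, and no test was made of them.

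Macrophage markers were set beside C1q because macrophages are its main source. Of the 18 macrophage and Kupffer cell markers, 11 rose in T2D control livers and 0 fell, with a median difference of 0.69. Lgals3 rose by 2.53, Ptprc, which all leukocytes carry, by 2.36, Cd68 by 2.23 and Csf1r by 1.60. Cd68 read 9.03, 9.07 and 9.41 in treated, 9.33, 9.03 and 9.03 in T2D control and 6.86, 6.93 and 6.90 in healthy pools, so its groups lie far apart. Markers of resident Kupffer cells were mixed. Cd5l and the scavenger receptor Cd163 rose by 0.82 and 0.86, whereas Marco at 0.47, Timd4 at 0.20, Clec4f at -0.24 and Vsig4 (itself a receptor for C3 fragments) at -0.40 were not called. The median of the 18 markers ran from 7.01 to 7.51 in treated, 6.91 to 7.18 in T2D control and 6.06 to 6.23 in healthy pools, and its part in the C1qb rise was not tested. Of the 6 dendritic cell markers, another source of C1q, 1 rose (Clec9a, by 0.46, at mean signals of 3.40, 3.41 and 2.95 in treated, T2D control and healthy pools, near background).

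**Figure D3:**
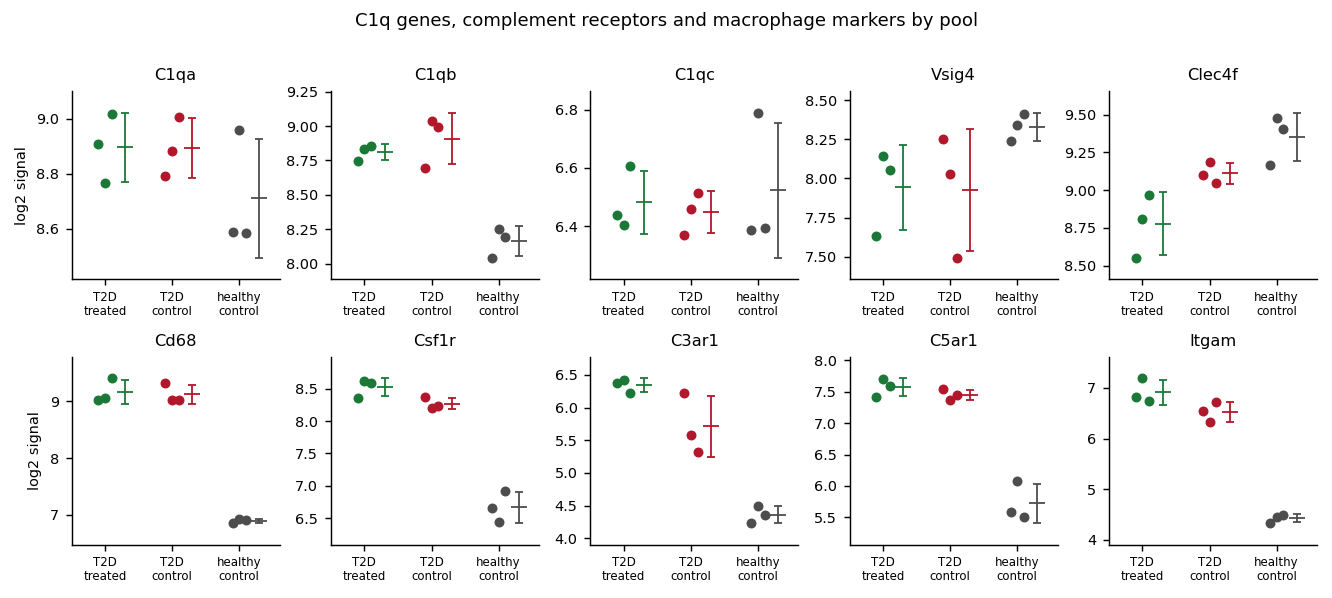
Log2 signal of the 3 C1q genes, 5 macrophage markers or receptors of macrophages (Vsig4, Clec4f, Cd68, Csf1r, Itgam) and the receptors C3ar1 and C5ar1 in each pool, with T2D treated, T2D control and healthy control from left to right (bar, mean with SD, n = 3). C1qb lies higher in all T2D pools, C1qa and C1qc overlap between groups, and Cd68 lies near 9 in T2D pools and near 7 in healthy ones.

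Most of the receptors that read complement were higher in T2D control livers. Of 12 other complement receptors and membrane regulators measured, 8 rose and 0 fell, and Vsig4, C5ar2 (0.03), Cr2 (-0.05) and Cd55 (0.09) were not called. Cd46, counted among the 8, rose by 0.34 at mean signals of 3.05, 3.16 and 2.82 in treated, T2D control and healthy pools, near background. Itgb2 and Itgam, the chains of complement receptor 3, rose by 2.21 and 2.10, and Cd93 by 1.69. C5ar1, the receptor of the anaphylatoxin C5a, rose by 1.73, reading 7.42, 7.70 and 7.60 in treated, 7.54, 7.37 and 7.44 in T2D control and 5.58, 6.08 and 5.51 in healthy pools. The C3a receptor C3ar1 rose by 1.35. Of 10 other soluble complement genes 5 rose and 1 fell. C7, the terminal component that is not a listed member, rose by 2.74 (SE 0.45, adjusted p = 0.00289), with 8.13, 6.45 and 7.42 in treated, 8.29, 7.25 and 7.03 in T2D control and 4.94, 4.99 and 4.42 in healthy pools. Clu (clusterin) rose by 0.58 and Cfp (properdin) by 0.52. Recognition molecules of the lectin pathway in this list went both ways. Fcnb (ficolin B) rose by 0.68 and Colec10 by 0.49 (adjusted p = 0.0441 and 0.00646). Fcna (ficolin A) fell by 1.13 (adjusted p = 0.000197), and Colec11 at -0.23 was not called.

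Other coagulation and fibrinolysis genes were mostly not called or higher, with exceptions among receptors and inhibitors. Plau (urokinase) rose by 1.27, Plat (tissue plasminogen activator) by 0.62, Plaur (the urokinase receptor) by 0.40 and Serpine2 (protease nexin 1) by 0.46, 4 of the 5 other fibrinolysis genes. F2r, a thrombin receptor, rose by 1.07 while F2rl1 fell by 0.41, and the other 5 cell-surface genes of coagulation were not called. F2rl1 averaged 3.46, 3.43 and 3.84 in treated, T2D control and healthy pools, near background. Of 12 other soluble coagulation genes, Tfpi (tissue factor pathway inhibitor) and Vwf (von Willebrand factor) rose by 0.96 and 0.54, and Serpina10, a liver-made inhibitor of factor Xa, fell by 1.44 (adjusted p = 0.0004). Markers of sinusoidal endothelium rose in 8 of 8 genes (median 0.76, Clec4g 1.23) and those of stellate cells and fibroblasts in 8 of 10 (median 0.80, Rgs5 2.18). The 14 hepatocyte markers had a median of -0.02 but did not move alike. Tat (1.02), Apob (0.90), Cps1 (0.52) and Apoa1 (0.33) were the 4 called higher, and G6pc (-1.51) and Ttr (-0.49) the 2 called lower. The part of these and of the other markers in the members' differences was not tested.

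Acute phase genes, which share inducers with several of these factors, were mixed. Of 12 measured, 6 rose and 0 fell in T2D control livers, led by Lcn2 at 3.18 and Lbp at 1.89, while Hp (haptoglobin) at 0.04 and Crp at -0.23 were not called. None of the 3 fibrinogen chains, acute phase proteins themselves, was called higher.

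**Figure D4:**
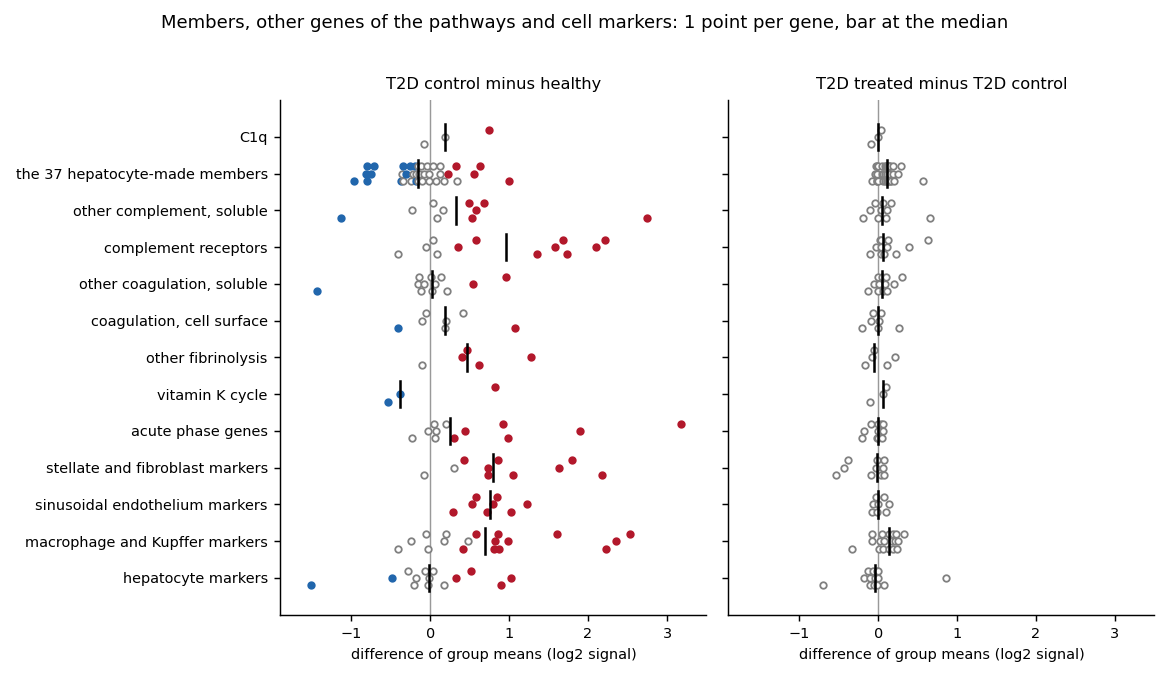
Differences of single genes (1 point each, log2 signal) by list, in T2D control minus healthy and T2D treated minus T2D control livers, with a bar at each list's median. Filled points were called (red higher, blue lower). At the left the hepatocyte-made members have a median of -0.15, while complement receptors and macrophage, endothelial and stellate markers reach beyond 1, and at the right no point is filled.

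In T2D rats given Cγ and lupanine, no member passed the threshold against T2D control rats. Of the 41, 0 were called in T2D treated against T2D control livers (limma, all clusters 0.0668%), and 39 had 95% intervals that lay within 0.5 log2 of 0, C6 and C4bpb being the exceptions. At an unadjusted p under 0.05 there were 5 members, all higher in treated livers, where all clusters had 1.92% higher and 3.21% lower. The pools did not overlap in 13 members, higher in treated livers in each, and over all clusters 5.27% did so upward and 8.99% downward. The median difference of the members was 0.09, that of all clusters -0.005 and that of clusters with a mean of at least 8 -0.14, and none of the 41 met the study's threshold (0.244% of all clusters).

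C6, a component of the membrane attack complex, read 7.84, 8.49 and 8.20 in treated pools, 7.45, 7.61 and 7.76 in T2D control pools and 7.94, 7.87 and 8.06 in healthy pools. The difference was 0.57, or 1.48-fold (SE 0.15, adjusted p = 0.467 by limma, interval 0.22 to 0.92), and the lowest treated pool lay just above the highest T2D control pool. C8g, the lipocalin-like subunit of C8 and one of the genes that the study lists from these same arrays, read 9.64, 9.64 and 9.50 in treated, 9.43, 9.27 and 9.23 in T2D control and 9.49, 9.43 and 9.42 in healthy pools. Its difference of 0.29 (SE 0.070, adjusted p = 0.366) places the treated pools above the other groups, so this member of a list chosen on these arrays gives no separate evidence. All 6 terminal genes had positive differences, from 0.11 to 0.57, and treated pool 2 was the highest treated pool in each. With a pool left out, the lowest difference was 0.41 for C6 and 0.25 for C8g. It was near 0 for the others: 0.0110 for C5, 0.0107 for C8a, -0.0099 for C8b and -0.0059 for C9.

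The other 3 were a recognition molecule of complement, a clotting factor and an anticoagulant. Mbl1 differed by 0.25 (adjusted p = 0.832), F10 by 0.17 (adjusted p = 0.862) and Proc by 0.15 (adjusted p = 0.836), and in each the treated pools lay above every T2D control pool. Against healthy livers the T2D control differences of these genes were -0.82, -0.31 and -0.71 (Mbl1, F10 and Proc), and both sets of differences use the same T2D control pools. F12 differed by 0.19 and lay just outside that threshold. The study lists F12 as fully restored to the healthy level and C8g as mostly restored, judged on these same arrays.

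**Figure D5:**
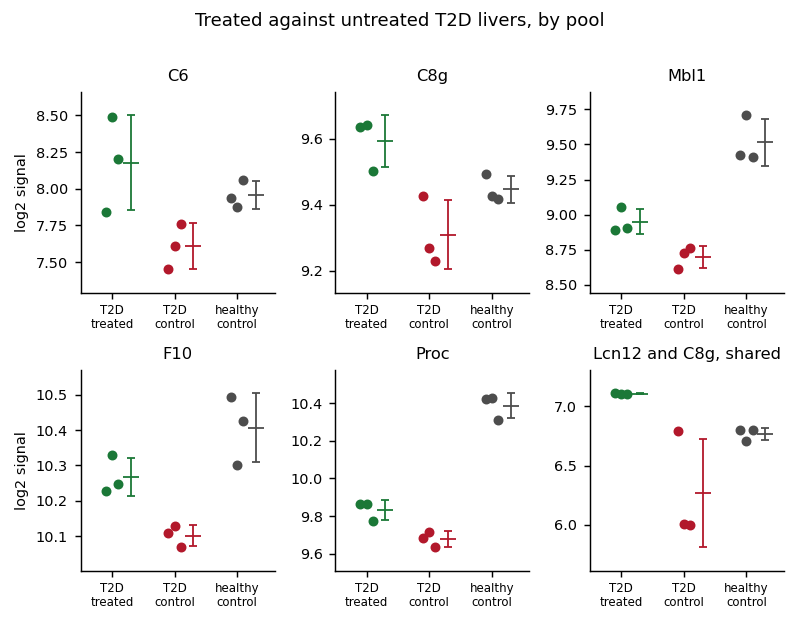
Log2 signal by pool of the 5 members with an unadjusted p under 0.05 in T2D treated against T2D control livers, and of the cluster that Lcn12 and C8g share, with T2D treated, T2D control and healthy control from left to right (bar, mean with SD, n = 3). In all 6 panels every treated pool lies above every T2D control pool, and none of the differences was called.

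None of the C1q genes moved with treatment by the test. C1qa differed by 0.002 (interval -0.26 to 0.27), C1qb by -0.10 (-0.33 to 0.13) and C1qc by 0.03 (-0.23 to 0.30). Of the 49 other genes of these pathways, 0 were called and 5 had an unadjusted p under 0.05, all higher in treated livers: Fcnb (ficolin B) by 0.66, C3ar1 by 0.63, Itgam by 0.39, Serpina5 by 0.30 and Cpn1 by 0.16. Serpina5 was dim, with means of 4.04 in treated and 3.74 in T2D control pools. Clec4f among the macrophage markers differed by -0.33 (adjusted p = 0.757), and the transcription factors Cebpa and Foxa2 by 0.48 and 0.32 (adjusted p = 0.531 and 0.656). The stellate markers Rgs5, Acta2 and Dcn differed by -0.44, -0.53 and -0.38 (adjusted p = 0.402, 0.747 and 0.948) and the hepatocyte marker Tat by -0.70 (adjusted p = 0.864), so these 7 marker and regulator genes, all with an unadjusted p under 0.05, went both ways.

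In T2D treated against healthy livers, 7 members rose and 10 fell. All clusters had 11.1% higher and 23.1% lower, and no member met the study's threshold, which 3.63% of all clusters met. The genes that rose were C1qb, C1s, Masp1, C3, C5, Serping1 and F5, and those that fell were Mbl1, Mbl2, Cfd, C8b, C4bpb, F2, F13b, Fgb, Proc and Serpind1. This comparison uses the same healthy pools as that of T2D control livers, so the values are given side by side only. F10 differed from healthy livers by -0.14 in treated and -0.31 in T2D control livers, F12 by -0.18 and -0.37, Serpinc1 by -0.14 and -0.26, and Plg by -0.10 and -0.18, the second of each pair being called. C5 differed by 0.46 in treated and 0.33 in T2D control livers and Mbl2 by -0.32 and -0.24, the first of each pair being called. The test of treated against T2D control livers called none of these 6.

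The sizes in treated livers were 0.65 for C1qb, 0.71 for Serping1, 0.95 for F5, 0.64 for Masp1 and 0.48 for C1s. They were -0.70 for F2, -0.69 for F13b, -0.55 for Proc, -0.57 for Mbl1, -0.62 for C8b and -0.70 for Cfd, so F2 lay 1.63-fold and Mbl1 1.48-fold below healthy livers. C1qb, Masp1, Serping1, F5, Mbl1, C8b, F2, F13b and Proc held under all 8 alternative settings and without each pool. Median centring gave 11 members higher and 6 lower, and quantile normalization 5 and 9, against 7 and 10 as deposited. Calls were lost for C5 without treated pool 2 or 3 or healthy pool 7 or 8 (0.35 to 0.57), for C4bpb without treated pool 1 or 3, any T2D control pool or healthy pool 8 (-0.96 to -0.51), for Fgb without treated pool 1 or 3 or healthy pool 8 (-0.44 to -0.26), for C3 without treated pool 2 or 3 (0.20 to 0.32), for Mbl2 without treated pool 1 or 3 (-0.41 to -0.24), for Serpind1 without treated pool 1 or 2 (-0.24 to -0.19) and for Cfd without healthy pool 8 (-0.81 to -0.50). C1qa was called without healthy pool 8 here too (0.31, adjusted p = 0.0391).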

How the data were processed

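Liver RNA of 9 pools was read on Affymetrix Clariom D Rat arrays. The deposited log2 values are gene-level RMA signals that the authors made in Transcriptome Analysis Console 4.0.2, that is, background-corrected, quantile-normalized and summarized to 1 value per transcript cluster. Their number of arrays, not a read depth, limits the precision, and the genome build of the array annotation is not given in the sources used here. Of 70580 entries, 1738 control probe sets were left out. The remaining 68842 clusters were fitted with limma 3.58.1 (R 4.3.3) as 3 group means over 9 arrays, with eBayes and Benjamini-Hochberg adjustment over all clusters, after the script had been tested on simulated data. Clusters were named through the platform annotation. 23446 had 1 symbol, 505 several and 44891 none.

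The members and gene lists were chosen with earlier results of these data known. Every member could be named. Values in every pool are given for the C1q genes, for up to 6 called members with the smallest p per direction and comparison, for members with an unadjusted p under 0.05 for treatment, and for C8g. Of other lists up to 4 genes with the smallest p were named, and further ones were chosen after their values were seen. The 8 alternative settings were a fit of the 2 groups compared alone, a second quantile normalization, median centring, array weights, a trended and robust eBayes, a minimum mean signal of 5, adjustment over clusters of 1 symbol, and averaging over all of a gene's clusters. Further alternatives were the study's threshold (an unadjusted p under 0.05 with an over 2-fold difference), and each pool left out. For the C1q contrast they were also means for medians, medians of gene by gene differences (added after seeing the data) and Cfd counted as hepatocyte-made. Promoters are 250 bases before RefSeq start sites on GRCr8. Some results are not reported here.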

Additional observations from a re-analysis of the deposited data

Results flagged for a closer look

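One signal lay in data outside the genes measured above. A second cluster at the C8g locus, which carries the symbols Lcn12 (a lipocalin) and C8g together, read 7.11, 7.11 and 7.10 in T2D treated pools, 6.79, 6.01 and 6.00 in T2D control pools and 6.80, 6.71 and 6.80 in healthy pools. It was 0.84 log2 higher in treated than in T2D control livers (SE 0.19, adjusted p = 0.292 by limma), with no overlap of the pools, and was not called. T2D control pool 4 lay beside the healthy pools and the other T2D control pools below them. Both genes are in a list that the study chose on these arrays, and which of them the probes read cannot be told apart. The study also places Lcn12 among the downregulated genes between T2D control and treated livers, while this cluster was higher in treated livers. The reason for the unlike signs was not tested.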

How the results depend on the processing

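In T2D control against healthy livers the 19 members called became 12 with eBayes trend and robust settings and 0 at the study's threshold, and 14 to 20 with a pool left out. In treated against healthy livers the 17 became 10 with the 2 groups alone and 0 at that threshold, and 12 to 18 with a pool left out. Treated against T2D control livers gave 0 with every setting and every omitted pool (0 to 0), where 5 had an unadjusted p under 0.05. The C1q median minus the hepatocyte-made median, in which the middle gene differs between pools, gave 0.88 for T2D control against healthy livers (0.82 to 0.94 with a pool left out), but 0.42 with means, 0.33 with medians of gene by gene differences (added after seeing the data) and 1.07 after quantile normalization. It gave 0.72 for treated against healthy livers (0.66 to 0.80), but 0.30 with means and 0.24 gene by gene, and -0.15 for treated against T2D control livers (-0.22 to -0.08). Signs were followed in 48 differences, those of the C1q genes, of called members and of members with an unadjusted p under 0.05 for treatment, and turned in C1q genes and C1s alone. Other uncalled members near 0 also changed sign with a pool left out, such as C9 (-0.0566 to 0.1496) and Masp2 (-0.0312 to 0.0118) in T2D control livers. Under quantile normalization C1qa was -0.16 in T2D control and -0.0571 in treated against healthy livers, C1s -0.14 in T2D control livers, and C1qb 0.0143 for treatment. C1qc was 0.0426 and 0.0837 against healthy livers (T2D control and treated) after median centring and 0.0260 and 0.0678 with array weights. With a pool left out it ran from -0.14 to 0.0582 in T2D control and from -0.11 to 0.0928 in treated livers against healthy ones, and for treatment C1qc ran from -0.0271 to 0.0736 and C1qa from -0.0572 to 0.0674. Over these 48, 613 recomputed values kept direction and side of the threshold, 89 lost the call, 2 gained one and 16 changed sign, and the cause was not tested. No paired analysis was possible because the groups share no replicate numbers. With 3 pools per group the 95% intervals for treatment had half-widths of 0.12 to 0.54 log2 (median 0.21).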

Other observations

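Clusters of members that were not analysed as genes, and of near copies, were not called in any comparison. The cluster shared by C2 and Cfb, neighbouring proteases of the classical and the alternative pathway, differed by -0.09 in T2D control against healthy livers, 0.13 in treated against T2D control livers and 0.04 in treated against healthy livers. That of Kng1 and Kng2, the kininogens, differed by -0.09, 0.03 and -0.05. The 2 clusters of C4b, the near-identical copy of C4a, differed by 0.12 and 0.07 in T2D control against healthy livers and by 0.28 and 0.22 in treated against healthy livers (adjusted p = 0.109 and 0.185). The second cluster of Mbl2 differed by -0.20 in both comparisons with healthy livers (adjusted p = 0.0926 for T2D control and 0.0844 for treated).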
